A study of Mus musculus with 2 samples.

Results

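The de novo serine pathway and the mitochondrial arm of folate metabolism were read through 9 genes: Phgdh, Psat1, Psph, Shmt1, Shmt2, Mthfd1, Mthfd1l, Mthfd2 and Aldh1l2. The genes were chosen by symbol, as every row of the single-cell count matrices that bears one of these names, and they are 9 of the 22587 symbols listed. All 9 were found in both libraries. The comparison is between adult mice in which Opa1, the GTPase of inner mitochondrial membrane fusion, was deleted from hippocampal neural stem cells (NSCs) and their progeny, named Opa1 cKO, and control mice, named CT. Both samples carry the same strain label (Opa1-Flox;Nestin-CreERT2;ROSA26YFP), while the sorting protocol calls the control mouse negative for Opa1-Flox. Tamoxifen (TAM) was given at 8 weeks of age and cells were taken at 12 weeks, 4 weeks post-TAM. The CreERT2 recombinase is driven by the Nestin promoter and the ROSA26 allele makes recombined cells yellow fluorescent (YFP+), so cells outside the stem cell lineage that use this promoter can be labelled as well. Live YFP+ cells of the hippocampus were sorted, the cells of 3 mice were pooled per genotype, and each pool gave 1 library of the 10x Genomics 3′ assay.

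Serine is made from the glycolytic intermediate 3-phosphoglycerate in a chain of reactions. PHGDH, the first enzyme, oxidizes 3-phosphoglycerate, PSAT1 transfers an amino group from glutamate, and PSPH removes the phosphate to release serine. Serine hydroxymethyltransferases then move a carbon unit from serine to tetrahydrofolate and leave glycine, SHMT1 in the cytosol and SHMT2 in mitochondria. The carbon unit is carried onward in the cytosol by the trifunctional enzyme MTHFD1, and in mitochondria by the dehydrogenase/cyclohydrolase MTHFD2, by MTHFD1L, which releases formate, and by ALDH1L2, which oxidizes formyl-tetrahydrofolate to carbon dioxide and yields NADPH. In the adult brain Phgdh is known as an enzyme of astrocytes and radial glia-like stem cells, and Mthfd2 as an enzyme of embryonic and dividing cells. Several of these genes, with Psat1 and Mthfd2 among them, are described as targets of ATF4, the transcription factor of the integrated stress response, which binds the sequence TGATGNAA.

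The region just before the start of each gene was therefore looked at for these letters. The promoter set used (RefSeq starts, build GRCm38.p6) held entries for 8 of the 9 genes, in 9 windows of 250 bases before the start. Psat1 has more than 1 start in this set, and Aldh1l2 has no entry in it. The motif TGATGNAA was searched on both strands, and so was its first part, TGATG, which every full match also contains. None of the 9 windows held TGATGNAA, and 3.45% of the 32851 promoter windows of all genes did. At so low a share 9 windows are too few to show a lack of the motif. TGATG lay in the windows of 3 of the genes, Mthfd2, Mthfd1l and Mthfd1, and in 34.5% of all windows. These are matches of letters in a short window, and they say nothing of sites further up or inside the gene. The windows of Mthfd2 (chr6:83317605-83317854, minus strand), Mthfd1l (chr10:3972825-3973074, plus strand) and Psat1 (chr19:15925060-15925309, minus strand, first entry) are shown because these genes differed between the genotypes below, and that of Asns (chr6:7693210-7693459, minus strand), the asparagine synthetase gene, because it holds the full motif. Each is written 5′ to 3′ up to the base before the start, and capitals mark TGATG, its reverse complement CATCA, or the full motif. The start is that of the RefSeq entry. For Mthfd2 and Psat1 it lies inside the gene span of GENCODE M21 given below, which begins further upstream.
Mthfd2: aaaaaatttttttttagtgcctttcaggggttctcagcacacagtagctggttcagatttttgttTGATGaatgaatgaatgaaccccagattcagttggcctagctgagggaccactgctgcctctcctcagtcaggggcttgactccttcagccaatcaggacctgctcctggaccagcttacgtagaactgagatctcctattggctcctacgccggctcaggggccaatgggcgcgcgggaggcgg
Mthfd1l: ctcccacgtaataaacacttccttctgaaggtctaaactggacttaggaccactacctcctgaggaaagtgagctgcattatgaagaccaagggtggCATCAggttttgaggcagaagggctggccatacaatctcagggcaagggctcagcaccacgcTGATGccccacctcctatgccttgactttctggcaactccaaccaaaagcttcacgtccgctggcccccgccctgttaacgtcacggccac
Psat1: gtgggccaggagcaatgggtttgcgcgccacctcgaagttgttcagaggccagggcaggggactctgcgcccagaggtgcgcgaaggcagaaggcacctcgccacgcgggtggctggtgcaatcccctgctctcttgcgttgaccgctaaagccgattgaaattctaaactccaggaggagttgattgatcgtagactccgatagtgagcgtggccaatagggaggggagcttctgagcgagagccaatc
Asns: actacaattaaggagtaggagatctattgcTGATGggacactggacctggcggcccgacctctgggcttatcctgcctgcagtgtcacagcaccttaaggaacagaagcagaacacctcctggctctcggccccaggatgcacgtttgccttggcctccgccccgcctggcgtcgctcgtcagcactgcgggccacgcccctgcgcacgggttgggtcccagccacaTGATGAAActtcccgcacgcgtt
In Mthfd2 the capitals lie 185 to 181 bases before the start. In Mthfd1l they lie 153 to 149 bases before it, on the opposite strand, and 91 to 87 bases before it. The Psat1 window has none. In Asns TGATGAAA lies 23 to 16 bases before the start, with another TGATG further up.

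The CT matrix held 4634 barcodes and 10799936 unique molecular identifiers (UMIs, each the count of 1 captured mRNA molecule), and the Opa1 cKO matrix 6475 barcodes and 18662032 UMIs. The filters (over 600 and under 7500 genes per cell, under 20% mitochondrial UMIs, a YFP UMI) left 1790 cells of CT with a median of 2555 UMIs and 3764 of Opa1 cKO with 3008. The libraries shared 36 barcodes, of which 9 were among the kept cells. Cells were clustered without the 9 genes, the mitochondrial mRNAs and the stress response genes. Clusters were joined into classes by marker genes: 1373 CT and 2846 Opa1 cKO cells were NSC pool-like, and the others were progenitor and neuron-like (154 and 316), ependymal-like (39 and 245), mural-like (95 and 167), endothelial-like (55 and 89) and oligodendrocyte-like (74 and 101). Adult astrocytes express the markers of the NSC pool too and were not separated from it. UMIs were summed over the cells of a class and scaled by all UMIs of the class to a common total (CPM). As each genotype is 1 library, no test between genotypes was possible. A gene is called higher or lower when its CPM differs at least 2-fold, which is a log2 ratio of 1 or −1, and genes with under 20 UMIs over both groups are not called. Intervals are 95% and cover counting error only, so differences between mice or between library preparations lie outside them. The 3′ assay gives no level per length, so levels are compared within a gene and not between genes.

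The targeted gene was read first. In NSC pool-like cells Opa1 was at 18.6 CPM (14.5 to 23.5, 70 UMIs) in the CT library and at 7.31 CPM (5.68 to 9.27, 68 UMIs) in the Opa1 cKO library. The log2 ratio was −1.35 (−1.85 to −0.85). It was thus lower in the library labelled Opa1 cKO. In mural-like and endothelial-like cells Opa1 was at 5 UMIs each in Opa1 cKO, and at 1 and 2 UMIs in CT, too few to show whether it was lower there.

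In NSC pool-like cells 5 of the 8 genes with enough UMIs were at least 2-fold higher in Opa1 cKO and none was lower. These were Mthfd2, Aldh1l2, Mthfd1l, Psat1 and Psph. Over all 11401 genes read in these cells 4.67% were at least 2-fold higher and 3.67% at least 2-fold lower. The median log2 ratio was 1.22 for the 8 genes and 0.05 for all genes. The joined class was made up differently in the libraries. The cluster led by Aldoc, Timp4 and Acsbg1 held 66 CT and 1741 Opa1 cKO cells. Gdf15 came next among its leading genes. Whether this cluster groups cells by stress rather than by cell type was not tested. The clusters led by Slc7a10 and Cxcl14, and by Slitrk2 with globin genes, held 801 and 844, and 506 and 261 cells. The summed level of the 11 NSC pool markers was 63643 CPM in Opa1 cKO against 69502 CPM in CT. Among the marker lists of other cells, that of oligodendrocyte precursors (7 genes) was at 110 and 304 CPM, with 3 and 2 genes at 0, and that of microglia (8 genes, none at 0) at 68.6 and 141 CPM. That of radial glia and activated NSCs (14 genes, none at 0) was at 200 and 257 CPM. An alternative clustering on all genes set apart a cluster named by that list, with 11 CT and 406 Opa1 cKO cells. The part of such cells in the values below was not tested.

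**Figure D1:**
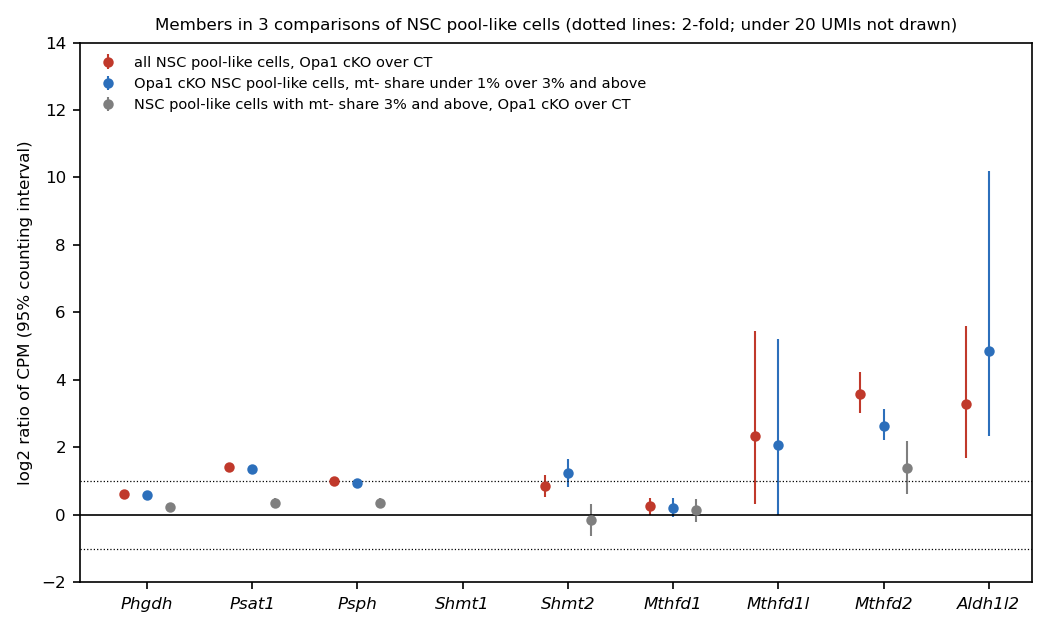
Log2 ratio of CPM (y axis) of the genes with at least 20 UMIs in each of 3 comparisons of NSC pool-like cells. Shmt1 is thus not drawn, and Aldh1l2 and Mthfd1l are not drawn for cells of 3% and above. Points are ratios, bars their 95% counting intervals, and dotted lines mark 2-fold. Mthfd2 is above the upper line in all 3 comparisons, Psat1 in those that involve cells of low mitochondrial mRNA share, and Mthfd1 lies near 0 throughout.

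Phgdh, the entry enzyme of serine synthesis (ENSMUSG00000053398, chr3:98313170-98339990, minus strand, mm10), was counted in large numbers in both libraries. It stood at 900 CPM (870 to 931) from 3384 UMIs in CT and at 1381 CPM from 12852 UMIs in Opa1 cKO. The log2 ratio was 0.62 (0.56 to 0.67), or 1.53-fold, which is beyond counting error and short of 2-fold. Psat1, the aminotransferase (ENSMUSG00000024640, chr19:15904678-15947337, minus strand), was at 196 CPM (182 to 211) in CT and 528 CPM (513 to 543) in Opa1 cKO. This is a log2 ratio of 1.43 (1.32 to 1.54), or 2.69-fold, the 223rd highest of the 11401 genes. Psph, the phosphatase (ENSMUSG00000029446, chr5:129765558-129787449, minus strand), was at 269 CPM (252 to 286) and 543 CPM (528 to 558). Its log2 ratio of 1.01 (0.92 to 1.11) lies at the 2-fold line, and it was 0.96 when mitochondrial UMIs were left out of the total. The 3 serine synthesis genes summed to 1365 CPM in the CT library and 2452 CPM in the other, and the log2 ratio of these sums was 0.84 (0.80 to 0.89). The annotation also lists a processed pseudogene of Phgdh, and reads shared with it could not be told apart in these counts.

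Of the 8 genes read, cytosolic Mthfd1 had the lowest log2 ratio. Mthfd1 (ENSMUSG00000021048, chr12:76255298-76319803, plus strand) was at 59.2 CPM (54.4 to 64.4) in Opa1 cKO against 49.7 CPM (42.9 to 57.4) in CT, and its log2 ratio was 0.25 (0.01 to 0.50). Shmt1 (ENSMUSG00000020534, chr11:60788104-60811718, minus strand) had 16 UMIs in the NSC pool of Opa1 cKO and 1 in that of CT, too few for a call. Nearly all serine hydroxymethyltransferase UMIs of the NSC pool came from the mitochondrial gene: Shmt2 had 99.0% of the Shmt1 and Shmt2 UMIs in CT and 96.4% in Opa1 cKO.

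The highest log2 ratios of the 8 genes were those of Mthfd2, Aldh1l2 and Mthfd1l, all mitochondrial enzymes. Mthfd2 (ENSMUSG00000005667, chr6:83305691-83325908, minus strand) had 25 UMIs in the 1373 CT cells and 749 in the 2846 Opa1 cKO cells. This is 6.65 CPM (4.30 to 9.82) and 80.5 CPM (74.8 to 86.5), a log2 ratio of 3.60 (3.02 to 4.23) or 12.1-fold, the 23rd highest of all genes read. Aldh1l2 (ENSMUSG00000020256, chr10:83487450-83534140, minus strand) was counted 72 times in Opa1 cKO against 3 times in CT, which gives a log2 ratio of 3.28 (1.67 to 5.59). Mthfd1l (ENSMUSG00000040675, chr10:3973118-4167081, plus strand) was counted 25 times against 2, and its log2 ratio of 2.34 has an interval from 0.33 to 5.46. For both, the few CT molecules set the width of the interval. Shmt2 (ENSMUSG00000025403, chr10:127517123-127522444, minus strand) was at 46.4 CPM (42.2 to 51.0) in Opa1 cKO against 25.8 CPM (20.9 to 31.5) in CT, and its log2 ratio of 0.85 (0.53 to 1.18) falls short of 2-fold. Summed, the 4 mitochondrial genes went from 33.8 CPM (127 UMIs) to 137 CPM (1278 UMIs), a log2 ratio of 2.02 (1.76 to 2.30), and from 2.33% to 5.18% of the UMIs of the 9 genes.

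The share of the mitochondrial gene was read within pairs of genes whose products catalyse matching steps. These are shares of mRNA molecules, compared between libraries and classes, and they measure neither enzyme nor the flow of carbon. Mthfd2 had 11.8% (7.78 to 16.9) of the Mthfd2 and Mthfd1 UMIs in CT NSC pool-like cells, and 57.6% (54.9 to 60.3) in Opa1 cKO. In progenitor and neuron-like cells of CT the share was already 51.7% (38.2 to 65.0), and it was 75.3% (68.1 to 81.6) in Opa1 cKO. In oligodendrocyte-like cells it was 63.4% (46.9 to 77.9) and 71.8% (55.1 to 85.0), where the intervals overlap. The CT NSC pool thus stood below the CT cells of these classes in this share, and the Opa1 cKO NSC pool lay within their range. The ependymal-like and vascular classes of CT had too few UMIs of the pair to be read. In Opa1 cKO their shares were 35.9% in ependymal-like, 89.1% in mural-like and 87.2% in endothelial-like cells. For Mthfd1l and Mthfd1 the NSC pool share was 1.06% (0.13 to 3.77) in CT and 4.34% (2.83 to 6.34) in Opa1 cKO. For Shmt2 and Shmt1 the share in CT was 99.0%, with 1 Shmt1 UMI, so a rise could not be read.

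The 13 mRNAs encoded in mitochondrial DNA (mt- genes) gave a second way to order the cells. Their median share of a cell's UMIs was 5.23% in CT NSC pool-like cells and 0.730% in Opa1 cKO. Of the Opa1 cKO cells 1663 (58.4%) had a share under 1%, 400 had 1% to under 3%, and 783 had 3% or more. In CT these numbers were 3, 108 and 1262, so shares under 1% could be read in Opa1 cKO only. Within the Opa1 cKO library, cells under 1% were set against cells at 3% and above. These are cells of 1 library and not replicates, and a lower mt- share by itself raises the CPM of every other gene. The median log2 ratio of all 10732 genes read was 0.23, with 6.25% at least 2-fold higher and 2.22% at least 2-fold lower. How much of this median comes from the mt- UMIs was not tested. The NSC pool markers summed to 59237 CPM in cells under 1% and to 76347 CPM in cells at 3% and above. Oligodendrocyte precursor markers, a sum made mostly by 1 gene over the whole class, were at 390 and 130 CPM. Their part was not tested.

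In cells of low mt- share 5 of 8 genes were at least 2-fold higher, and none was lower. Mthfd2 was at 108 CPM against 17.2 CPM, a log2 ratio of 2.65 (2.21 to 3.13), which is 2.42 above the median of all genes. Psat1 was at 651 CPM (630 to 673) against 254 CPM (235 to 274), a log2 ratio of 1.36 (1.24 to 1.48) and 1.12 above that median. Shmt2 was at 57.1 against 24.2 CPM, a log2 ratio of 1.24 (0.84 to 1.65), and 1.00 above the median. So in this comparison Shmt2 passed 2-fold and Psph, at 633 against 330 CPM and a log2 ratio of 0.94 (0.83 to 1.05), did not. Aldh1l2 had 63 UMIs against 1, a log2 ratio of 4.87 with an interval from 2.34 to 10.20. It was the highest of all genes read, but this rank rests on 1 UMI and on setting groups at 0 to 3 counts. Mthfd1l had 18 against 2, with a log2 ratio of 2.06 and an interval that reaches 0.00. Phgdh had a log2 ratio of 0.60 (0.54 to 0.67), and Mthfd1 one of 0.21 (−0.07 to 0.50), no more than the shift of all genes.

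The share of each gene's Opa1 cKO molecules that lay in these cells was set beside the share of all UMIs. Cells under 1% held 59.3% of all UMIs of the Opa1 cKO NSC pool. That total includes the mt- UMIs, which are few in these cells by the grouping, so other genes tend to lie above it as well. The median log2 ratio of 0.23 for all genes, given above, includes this shift, and how much of it the shift makes was not tested. The same share was not computed for all genes, so lying above 59.3% is not by itself a result about the members. The cells under 1% held 87.5% of the Aldh1l2 UMIs, 79.4% of those of Mthfd2, 73.2% of Psat1, 72.9% of Shmt2, 72.0% of Mthfd1l (18 of 25), 69.2% of Psph, 68.8% of Shmt1 (11 of 16), 66.7% of Phgdh and 63.9% of Mthfd1.

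**Figure D2:**
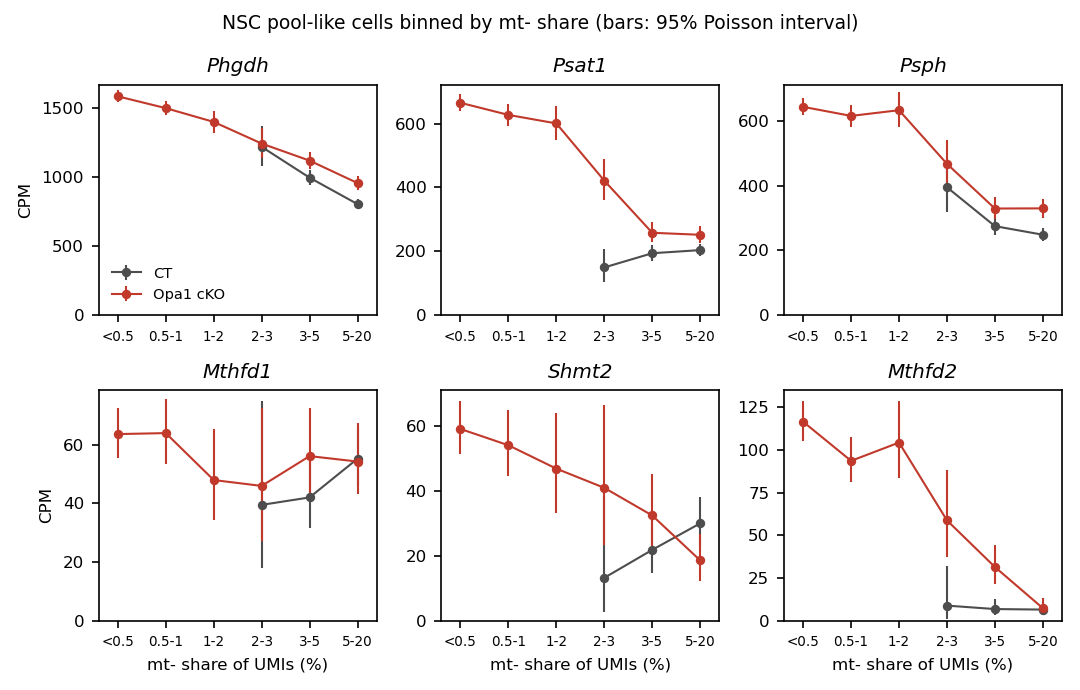
Level in CPM (y axes, which differ between genes) of 6 genes in NSC pool-like cells binned by the percentage of a cell's UMIs from the 13 mt- mRNAs (x axes), for CT (grey) and Opa1 cKO (red), with 95% Poisson intervals. CT bins of under 200000 UMIs are not drawn. Mthfd2 falls from 117 CPM in the lowest bin to 7.28 CPM in the highest bin of Opa1 cKO, and Mthfd1 shows no such slope.

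Finer bins showed differences in how the genes ran along the mt- share. Mthfd2 was at 117 CPM (105 to 129) in Opa1 cKO cells under 0.5%, at 93.6 CPM from 0.5% to 1% and at 104 CPM (83.6 to 129) from 1% to 2%, where the intervals overlap. It was at 58.7 CPM from 2% to 3%, at 31.4 CPM (21.6 to 44.1) from 3% to 5%, and at 7.28 CPM (3.64 to 13.03) from 5% to 20%. In the last bin it did not differ from the CT level of 6.45 CPM (3.52 to 10.8) beyond counting error. Psat1 ran from 666 CPM (639 to 693) in the lowest bin through 601 CPM at 1% to 2% and 421 CPM at 2% to 3% to 258 and 252 CPM in the highest bins. Psph had the same shape, with 644, 616 and 633 CPM in the lowest bins and 329 and 330 CPM in the highest. Both thus were nearly level below 2% and above 3%, with most of the difference in between. Phgdh fell more evenly, from 1586 CPM (1545 to 1629) in the lowest bin to 957 CPM (909 to 1008) in the highest, and it also differed along the share in CT, with 1220, 996 and 805 CPM from 2% upward. So did Psph in CT, which was at 395 CPM (318 to 486) from 2% to 3%, at 275 CPM (247 to 304) from 3% to 5% and at 248 CPM (228 to 270.1) above. The bin from 2% to 3% held 124 Opa1 cKO and 96 CT cells. There Psat1 was at 421 CPM (360 to 491) in Opa1 cKO and 149 CPM (103 to 209) in CT. Mthfd2 had 23 UMIs in Opa1 cKO and 2 in CT, 58.7 CPM (37.2 to 88.1) and 8.78 CPM (1.06 to 31.7). Psph at 467 CPM (402 to 540) and Phgdh at 1244 CPM (1136 to 1359) in Opa1 cKO overlapped their CT intervals.

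Cells with a share of 3% and above exist in both libraries, and were compared at like mt- share, 783 Opa1 cKO with 1262 CT cells. Of 6 genes with enough UMIs, Mthfd2 alone was at least 2-fold higher, against 1.07% of all 10388 genes (4.26% were lower, and the median log2 ratio of all genes was −0.12). Mthfd2 had 44 UMIs in Opa1 cKO and 23 in CT, 17.2 and 6.57 CPM, a log2 ratio of 1.39 (0.63 to 2.18). Of these 44 UMIs, 33 came from the 330 Opa1 cKO cells at 3% to 5%, and the 453 cells at 5% to 20% had 11, so the difference lay in the cells of lower mt- share within this group. The serine synthesis genes were higher by less than 2-fold, each with an interval above 0: the log2 ratios were 0.35 (0.19 to 0.50) for Psat1, 0.35 (0.21 to 0.49) for Psph and 0.22 (0.15 to 0.30) for Phgdh. Mthfd1 at 0.13 (−0.20 to 0.46) and Shmt2 at −0.15 (−0.64 to 0.33) had intervals that include 0. Opa1 itself was at 10.9 CPM in these Opa1 cKO cells and 18.3 CPM in CT, a log2 ratio of −0.74 (−1.44 to −0.08), closer to CT than in the whole class. Whether the cells of higher mt- share had all lost the gene was not tested.

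The clusters of the NSC pool differed in mt- share and in their numbers of CT and Opa1 cKO cells. Levels by cluster are therefore not independent of the comparisons above. Mthfd2 in Opa1 cKO was at 104 CPM in the cluster led by Aldoc, Timp4 and Acsbg1, where 77.3% of cells had a mt- share under 1%, and at 34.7 and 36.7 CPM in the others, where 24.3% and 42.9% did. Psat1 was at 642 CPM in the first cluster and at 294 and 365 CPM in the others. The CT levels of Psat1 were 221 CPM (157 to 304, 38 UMIs), 189 CPM (172 to 209) and 203 CPM (180 to 228) in the same clusters. Psat1 thus lay above its CT level beyond counting error within each of them. In the clusters other than the first the difference was under 2-fold. Opa1 in the first cluster was at 5.58 CPM (3.87 to 7.80) in Opa1 cKO and 5.83 CPM (0.15 to 32.5, 1 UMI) in CT. In the cluster led by Slc7a10 and Cxcl14 it was at 8.57 CPM (5.30 to 13.1) and 18.5 CPM (13.2 to 25.2). In that led by Slitrk2 with globin genes it was at 17.0 CPM (9.06 to 29.1) and 20.4 CPM (13.6 to 29.3), intervals that overlap.

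The share of cells with a UMI was read after each cell had been thinned to 1500 UMIs, a depth that 94 of the CT and 238 of the Opa1 cKO NSC pool-like cells did not reach. Psat1 was detected in 49.7% of cells in Opa1 cKO against 23.4% in CT, Psph in 51.0% against 32.2%, and Phgdh in 85.2% against 70.9%. The mitochondrial genes were found in fewer cells, Mthfd2 in 11.0% against 1.09% and Shmt2 in 6.71% against 3.05%, and cytosolic Mthfd1 in 9.01% against 5.71%. Without thinning, at median depths of 2947 and 2490 UMIs, these shares were 20.7% against 1.75% for Mthfd2 and 69.3% against 36.3% for Psat1. In endothelial-like cells, taken for comparison, the thinned shares in CT and Opa1 cKO were 3.70% and 13.5% for Phgdh, 1.85% and 10.1% for Psat1, 1.85% and 4.49% for Psph, and 1.85% and 5.62% for Mthfd2. A Mthfd2 UMI was found in 1 of 54 such thinned CT cells, in 0 of 42 mural-like CT cells, which allows up to 8.41%, and in 0 of 39 ependymal-like ones, which allows up to 9.03%. No class can be taken to lack these enzymes, so the part of free RNA in the low shares was not tested.

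More members were detected per cell in Opa1 cKO than in CT. Such counts rise with the shares of single genes given above, and whether members went together beyond these shares was not tested. At 1500 UMIs a CT cell of the NSC pool had a mean of 1.37 of the 9 genes detected and an Opa1 cKO cell 2.14, and 3 or more were detected in 9.62% and 35.6% of cells. Within Opa1 cKO this was 47.3% of cells of mt- share under 1% and 12.7% of cells at 3% and above. Cells with none of the 9 were 14.9% of CT and 4.33% of Opa1 cKO. Among the 1515 thinned Opa1 cKO cells of mt- share under 1%, Psat1 was detected in 68.0% (61.4 to 74.1) of the 222 cells with a Mthfd2 UMI and 58.8% (56.0 to 61.5) of the 1293 cells without. By the same split Mthfd1 was higher with a Mthfd2 UMI (10.8% and 9.67%), the rarest members left aside. Psph (57.7% and 59.6%), Phgdh (88.7% and 90.5%) and Shmt2 (6.31% and 8.97%) were lower. In each of these pairs the intervals overlap, for Psat1 only just. Separate intervals can overlap where shares differ by more than counting error, so overlap does not show shares to be alike. These differences were not tested. Psph was detected in 62.7% (58.9 to 66.3) of cells with a UMI of Ddit3, the stress response factor CHOP, and 56.6% (53.1 to 59.98) of cells without. These intervals overlap too, and the difference was not tested. Mthfd2 was found in 14.5% of cells with a UMI of Trib3, an ATF4 target, and in 14.7% of cells without. Within the cells of low mt- share the shares of Mthfd2 by Trib3 thus differed by less than counting error.

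**Figure D3:**
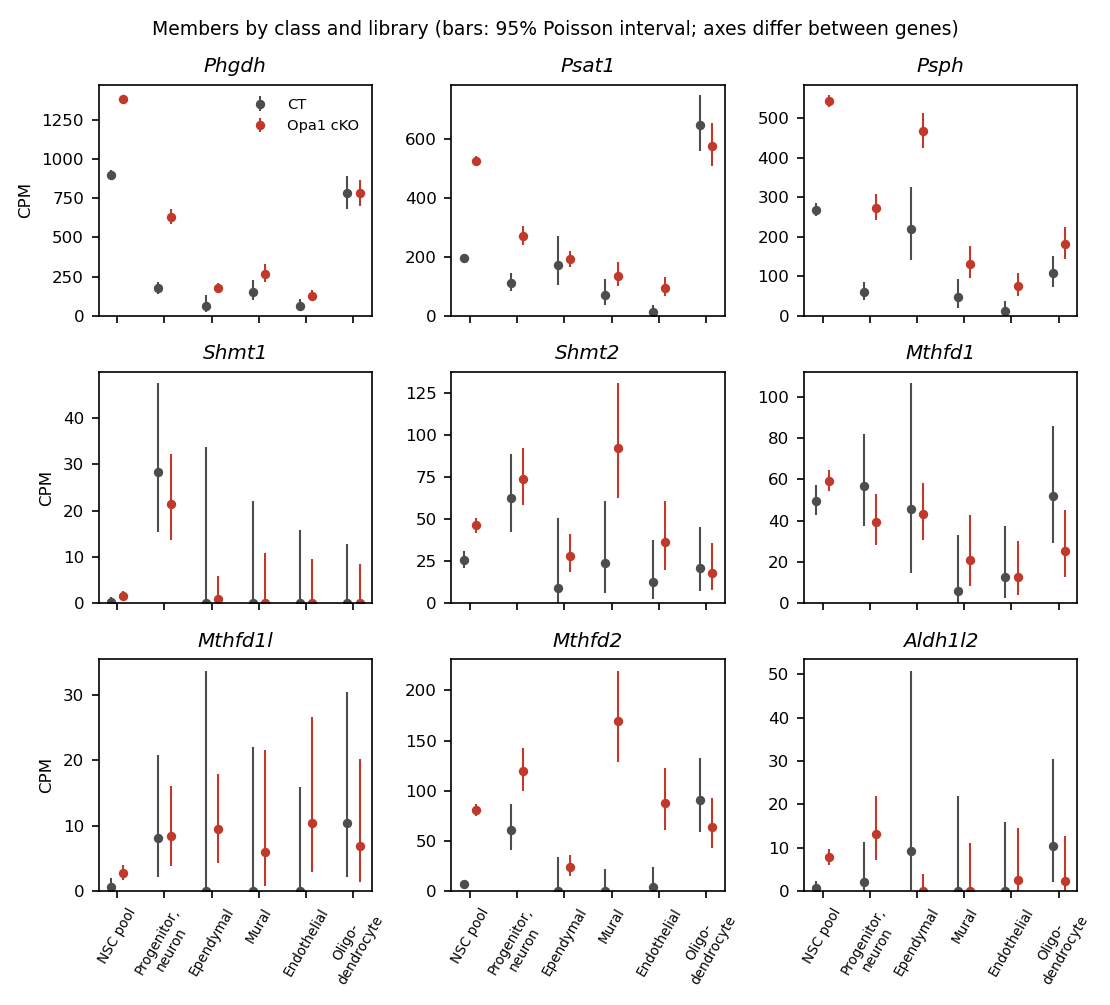
Level in CPM (y axes, which differ between genes) of the 9 genes in each class of cells (x axis), CT in grey and Opa1 cKO in red, with 95% Poisson intervals. Mthfd2 is higher in Opa1 cKO in the NSC pool-like, progenitor and neuron-like, mural-like and endothelial-like classes, and the 2 libraries overlap in oligodendrocyte-like cells for most genes.

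Across the CT classes each gene had its own order. Phgdh was at 900 CPM (870 to 931) in NSC pool-like and 781 CPM (683 to 890) in oligodendrocyte-like cells, intervals that overlap, and at 63.9 to 178 CPM elsewhere. Psat1 was highest in oligodendrocyte-like cells, at 649 CPM (560 to 749), followed by NSC pool-like cells at 196 CPM and ependymal-like cells at 174 CPM (104 to 271), which do not differ beyond counting error. Psph was highest in NSC pool-like cells at 269 CPM (252 to 286) and ependymal-like cells at 219 CPM (140 to 326), which overlap. Mthfd2 was at 90.3 CPM (59.0 to 132) in oligodendrocyte-like and 60.7 CPM (41.0 to 86.7) in progenitor and neuron-like cells, and the NSC pool at 6.65 CPM lay below both. Shmt1 was found mainly in progenitor and neuron-like cells, where 14 UMIs made 28.3 CPM in CT cells and 23 made 21.5 CPM in the Opa1 cKO library.

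In the classes other than the NSC pool, 12 values in all were at least 2-fold higher in Opa1 cKO and 1 was lower. Members with enough UMIs numbered 7 in progenitor and neuron-like, 5 each in ependymal-like, mural-like and oligodendrocyte-like, and 4 in endothelial-like cells. In progenitor and neuron-like cells (10.5% of 8519 genes at least 2-fold higher, 11.3% lower) the log2 ratio was 2.17 (1.63 to 2.77) for Psph, 1.83 (1.51 to 2.17) for Phgdh and 1.26 (0.85 to 1.70) for Psat1. Mthfd2 was at 60.7 and 120 CPM, a log2 ratio of 0.98 (0.40 to 1.61), and Mthfd1 had a log2 ratio of −0.53. This class was not the same mixture in the 2 libraries. Its 11 NSC pool markers, none at 0, summed to 19193 CPM in Opa1 cKO against 7899 CPM in CT, and its own 14 markers to 9322 against 18731 CPM. A finer clustering left 139 CT and 173 Opa1 cKO cells, with NSC pool markers at 8351 against 5006 CPM and own markers at 15495 against 20382 CPM. There Psat1 had a log2 ratio of 0.85 and was no longer 2-fold higher, Phgdh had 1.32 and Psph 1.66. Mthfd2 passed 2-fold with 66.7 CPM (45.0 to 95.2) in CT and 159 CPM (129 to 194) in Opa1 cKO, a log2 ratio of 1.25. Mthfd1 was at 51.1 CPM (32.4 to 76.7) and 24.6 CPM (13.8 to 40.6), a log2 ratio of −1.06.

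In mural-like cells, the contractile cells of the vessel wall (7.42% of 4529 genes higher, 6.60% lower), Mthfd2 had 0 UMIs in CT, and 57 UMIs or 170 CPM (129 to 220) in Opa1 cKO. With the CT group set to 3 counts in place of 0 this is 9.48-fold higher, a value that depends on that setting and is no lower limit. Shmt2 had 4 and 31 UMIs, a log2 ratio of 1.95 (0.45 to 3.91), and Psph 8 and 44, with 1.46 (0.35 to 2.75). Psat1 at 0.94 and Phgdh at 0.79 (0.15 to 1.48) fell short of 2-fold. In endothelial-like cells (4.36% of 5302 genes higher, 7.64% lower) the genes called were Mthfd2 with 1 and 34 UMIs and a log2 ratio of 4.36 (1.78 to 9.70), Psat1 with 3 and 37 and 2.90 (1.24 to 5.24), and Psph with 3 and 29 and 2.54 (0.85 to 4.90). This class held mural markers at 14698 CPM in Opa1 cKO and 17197 CPM in CT, beside its own at 14343 and 15342 CPM, so mural-like RNA or cells are part of it in both libraries. Trib3 was at 0 UMIs in both vascular classes of CT and at 49 and 45 UMIs in Opa1 cKO. The median mt- share of mural-like cells was 3.53% in CT and 2.25% in Opa1 cKO. In endothelial-like cells it was 3.49% and 3.09%, and 2 of the 89 Opa1 cKO cells had a share under 1%. A share of 1% to under 3% was found in 37 of these Opa1 cKO cells and in 11 of the 55 CT cells. The genes called in endothelial-like cells were thus higher in a class with few cells under 1%. How their levels ran with mt- share within this class was not tested.

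Ependymal-like cells, the ciliated cells of the ventricle wall, had a median mt- share of 6.41% in CT and 0.686% in Opa1 cKO, as low as in the NSC pool. There (13.1% of 6975 genes higher, 7.27% lower) Psph was at 467 CPM (425 to 512) in Opa1 cKO against 219 CPM (140 to 326) in CT, and its log2 ratio was 1.09 (0.50 to 1.75). Phgdh had 7 and 171 UMIs, with 1.49 (0.41 to 2.83), and Shmt2 1 and 27, with 1.63 (−0.97 to 6.99). Psat1 was at 174 and 192 CPM, a log2 ratio of 0.15, unlike in the NSC pool, though this difference between classes was not tested. Mthfd2 had 0 UMIs in 39 CT cells and 23 UMIs in 245 Opa1 cKO cells, too few to give a ratio. In oligodendrocyte-like cells, whose median mt- share was 4.85% in CT and 4.77% in Opa1 cKO (5.002% of 4838 genes higher, 6.24% lower), Phgdh had a log2 ratio of 0.00 (−0.25 to 0.25), Psat1 −0.17 (−0.45 to 0.11) and Mthfd2 −0.49 (−1.31 to 0.34). Psph had 0.75 (0.14 to 1.40). The gene called lower was Mthfd1, with 11 UMIs in Opa1 cKO against 15 in CT, and the interval of its log2 ratio of −1.04 (−2.31 to 0.18) includes 0.

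The stress response genes used for reference were read in the same NSC pool-like cells. Atf4 mRNA had a log2 ratio of 1.44, Ddit3 of 2.79 and Atf5 of 3.28. Asns was counted 678 times in Opa1 cKO against 1 in CT, for a log2 ratio of 8.10 (5.61 to 13.40), and Trib3 772 times against 0, 104-fold higher with CT set to 3 counts. Psat1 thus had a log2 ratio like that of Atf4 mRNA, and Mthfd2 one between those of Atf5 and Asns. At a mt- share of 3% and above Atf5 had a log2 ratio of 1.14, Ddit3 of 0.37 and Atf4 of −0.20. Trib3 was counted 25 times against 0 there, 11.4-fold higher by the same setting.

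The other genes of serine and folate metabolism were read from lists set by function. Of 9 genes of serine and folate transport, 2 were at least 2-fold higher in Opa1 cKO NSC pool-like cells and none lower, with a median log2 ratio of 0.37. Slc1a5, a neutral amino acid exchanger that carries glutamine and serine, was counted 237 times in Opa1 cKO against 7 in CT, for a log2 ratio of 3.77 (2.71 to 5.10) or 13.7-fold. Slc19a1, the reduced folate carrier, had 61 and 302 UMIs and a log2 ratio of 1.00 (0.60 to 1.42), which lies at the 2-fold line. Sfxn1, the mitochondrial serine transporter, and Slc1a4, a serine and alanine transporter, had the most UMIs of this list, with log2 ratios of 0.37 and 0.28. Among genes of glycine cleavage and other folate steps, those with the most UMIs were Gldc and Gcsh. Gldc, the decarboxylase of the glycine cleavage system, was at a log2 ratio of −0.02, and its partner Gcsh at 0.61.

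None of 7 measured genes of the methionine cycle and transsulfuration was called, with a median log2 ratio of 0.43. Mat2a, which makes S-adenosylmethionine, stood at 0.08 and Cbs, which joins serine to homocysteine, at 0.51. None of the 7 genes of thymidylate and purine synthesis was called either, with a median of 0.30, and those with the most UMIs, Paics and Pfas, stood at 0.66 and −0.49. Of 7 genes of serine use the one called was Sds, serine dehydratase, which was lower at 9 UMIs in Opa1 cKO against 13 in CT, and its log2 ratio was −1.84 (−3.24 to −0.50). The list's genes with the most UMIs were Sdsl at 0.21 and Ptdss2, which makes phosphatidylserine, at −0.03. The transport, methionine, thymidylate and purine, and serine use lists had medians from −0.01 to 0.43, against 1.22 for the 8 read genes of serine synthesis and one-carbon transfer and 0.05 for all genes.

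**Figure D4:**
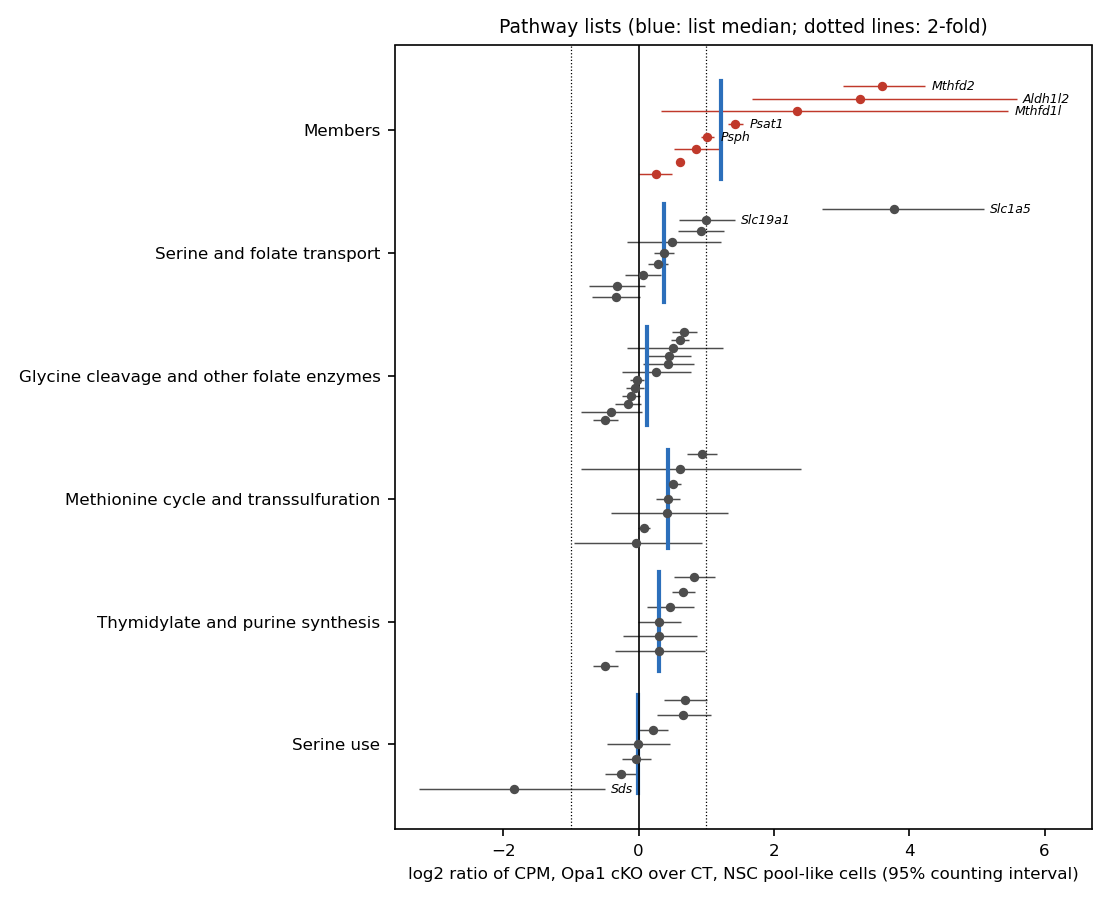
Log2 ratio of CPM, Opa1 cKO over CT (x axis), in NSC pool-like cells for the 9 genes (red) and the genes of 5 related lists (black). Points are genes with at least 20 UMIs, bars their 95% counting intervals, blue lines list medians, and names are given for genes past 2-fold (dotted lines). Slc1a5 and Mthfd2 stand furthest to the right, and most genes outside the first list lie between the dotted lines.

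The genes whose levels ran most like those of each member were sought over 23 groups of library, class and mt- share, among 7102 genes, by Pearson's r of log2(CPM + 10). These groups share libraries and differ in depth, so r is a description. Nearest to Mthfd2 were Eif3c, a subunit of a translation initiation factor (0.88), Sars, the seryl-tRNA synthetase (0.88), and Nars, the asparaginyl-tRNA synthetase (0.85). Nearest to Phgdh were Asrgl1 and Hsd17b10 (0.90 each) and Nudt19 (0.88), to Psat1 Gpm6b (0.88), Rnf5 and Fez1 (0.81 each), and to Psph Mlc1 (0.93), Prxl2a (0.91) and Tspan3 (0.90). Shmt2 ran closest to Plgrkt (0.86), Trmt11 (0.83) and Ndfip1 (0.80), and Mthfd1 to Ten1 (0.82), Amer2 (0.80) and Acot1 (0.79). Among the members r was 0.78 for Phgdh and Psat1, 0.71 for Shmt2 and Mthfd2, 0.70 for Psat1 and Psph, and 0.22 for Mthfd2 and Phgdh.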

How the data were processed

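The authors pooled YFP+ cells by genotype, prepared libraries with the 10x 3′ v2 kit, and aligned and counted reads on mm10. The submitters' processing notes name Cell Ranger 2.1.1, whereas the matrix headers name 3.1.0. The deposited values are raw counts of UMIs per gene and barcode, and barcodes outside the study's filters were still included. Everything else was computed from these counts.

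Identifiers sharing a symbol were summed. Filters, SCTransform, 8 dimensions and a resolution of 0.2 follow the study's methods (R 4.3.3, Seurat 5.3.0, sctransform 0.4.2). Other steps ran in python 3.11.15 with matplotlib 3.10.9, scanpy 1.11.5, scipy 1.17.1, numpy 2.4.6 and pandas 2.3.3. Clusters were named after the class that had most markers in their top 50 genes by fold, given at least 3 markers over 2-fold and a minimum share of the list. The form of this rule was changed after clusters had been seen. A doublet caller (Scrublet) marked 1 of 3764 Opa1 cKO and 3 of 1790 CT cells and was taken as not having worked, so removing the top 5% of scores was an alternative. CPM have exact Poisson intervals, ratios exact ones by splitting both counts binomially, and shares exact (Clopper-Pearson) binomial intervals, at 95%. A group at 0 was set to 3 counts over the group, and a fold made this way is not a lower counting limit. Ranks of log2 ratios among all genes depend on this setting too. Scripts were tested on simulated data. Coordinates are from GENCODE M21 (mm10), in which no annotated gene on the same strand that is also in the matrices overlaps a member.

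Genes named are the 9 members, from each list the genes called and the 2 with most UMIs in NSC pool-like cells, 6 reference genes, and the 3 most alike to each member with at least 300 UMIs. The members, lists and rules were chosen with earlier results of these data known. One listed gene is not reported here, so its list is drawn without it and no count is given for that list. In total 12 alternatives were tried.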

Additional observations from a re-analysis of the deposited data

Results flagged for a closer look

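Barcodes without a YFP UMI, which the comparisons above leave out, held a difference as well. When cells were clustered without the YFP requirement, 1550 Opa1 cKO and 1869 CT NSC pool-like cells had no YFP UMI. Mthfd2 had 24 UMIs in these CT cells and 175 in these Opa1 cKO cells, 5.79 and 48.0 CPM, a log2 ratio of 3.05 (2.43 to 3.73), where 2.42% of all genes were at least 2-fold higher. Psat1 had a log2 ratio of 0.97, Psph 0.83, Shmt2 0.42, Phgdh 0.39 and Mthfd1 0.23. A mt- share under 1% was found in 35.2% of these Opa1 cKO cells, and in 56.8% of those with a YFP UMI. All cells came from the YFP gate and the median depth was 2132.5 UMIs in Opa1 cKO and 2036 in CT, so a cell without a YFP UMI is not shown to be unrecombined.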

How the results depend on the processing

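No test between genotypes was made, so what follows concerns direction and the 2-fold line. Over all alternatives 460 of 469 ratios of single genes kept their sign, and 214 of 225 that were past 2-fold stayed past it. With genes of at least 100 UMIs only, which drops low genes, the number higher was 3 instead of 5 in the NSC pool, 3 instead of 5 between mt- share groups, 0 instead of 1 at 3% and above, and 5 instead of 12 in the other classes, where none was lower. With genes of at least 1 UMI, 2 instead of 1 were higher at 3% and above. Thinning to 1500 UMIs left 7 higher and 0 lower in the other classes. The number lower there was 1, against 0 without the YFP requirement, 0 without the cells of highest doublet score, and 2 at resolution 0.4. The cause was not tested. Psph lay at the 2-fold line in the NSC pool, with a log2 ratio of 0.96 when centred on the median of all genes. Over the alternatives Mthfd2 ranged from 3.37 to 3.60 in the NSC pool, from 2.36 to 3.08 between mt- share groups and from 1.08 to 1.76 at 3% and above. Counts under 20 UMIs limit Shmt1 in every class but progenitor and neuron-like cells. No paired analysis was possible because each genotype is 1 pooled library.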
